A study of Mus musculus with 15 samples.

Results

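The genes described here are 39 genes of the cell cycle and of DNA replication: checkpoint kinases, the enzymes that start and carry out DNA synthesis, cyclins with their kinases, and proteins of mitosis. Each was matched to a probe of the array whose gene name was its symbol, or an older alias in 2 cases (Cdk1 as Cdc2a and Cdc45 as Cdc45l), and was read from its brightest probe. All 39 were found, and all 39 lay among the 18655 gene names with a probe bright enough to test. Whole-heart RNA was hybridised to 15 Agilent arrays, with 5 mice in each group. The treated db/db mice were homozygous for the leptin receptor mutation on the C57BL/KLS background and received rosiglitazone, an insulin-sensitizing agonist of PPAR gamma, at 5 mg/kg per day in their chow for 4 months. The untreated db/db mice carried the same mutation and received no rosiglitazone. The db/+ mice were heterozygous littermates without diabetes, so 1 copy of the mutation was present in the controls as well. Ages were not given in the sources used here. The db mutation acts in the whole body, and the mice are obese as well as diabetic.

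Cells that divide copy their DNA once and then separate the copies, and cyclins bound to cyclin-dependent kinases drive each step. Mcm proteins are loaded onto replication origins before DNA synthesis, primase lays down the first nucleotides, Pcna clamps the polymerases to the template, and checkpoint kinases halt the cycle when DNA is damaged. Most adult cardiomyocytes have left the cell cycle, while endothelial cells, fibroblasts and blood cells in the heart can still divide.

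On each array the heart RNA carried Cy5 and a commercial mouse reference RNA carried Cy3. Values below are log2 ratios of heart to reference, so a value under 0 means less signal from heart than from reference RNA. The median heart signal was 158 to 302 per array, and 56.3% to 75.1% of the probes of an array were well above background. Arrays of treated replicates 3 and 4 were nearly the same in log2 heart signal, over probes well above background on all 15 arrays. The median absolute deviation of their difference was 0.115, against 0.239 to 0.576 in 29 other pairs of hearts of a group. They were averaged and counted as 1 heart, which left 4 treated, 5 untreated and 5 db/+ hearts. The brightest probe of Lepr, the mutated gene, differed by -0.84 from db/+ hearts in treated db/db hearts (adjusted p = 0.16 in limma) and by -0.82 in untreated ones (adjusted p = 0.15), so this gene did not separate the genotypes at the threshold. The arrays came on 4 slides. Slide 1 held db/+ replicates 1 to 4. Slide 2 held db/+ replicate 5 with untreated replicates 1 to 3. Untreated replicates 4 and 5 with treated replicates 1 and 2 were on slide 3, and treated replicates 3 to 5 on slide 4. Treated db/db and db/+ hearts therefore shared no slide, and slide 2 alone compared untreated db/db with db/+ hearts side by side. In fits with slide as a block, the treated difference from db/+ thus joins the differences within slides 2 and 3. Both it and the untreated difference then rest on 1 db/+ heart. In whole hearts, fewer cells of a type and less RNA per cell cannot be told apart.

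Promoter stretches are shown for 6 of the 10 genes that fell in at least 1 comparison with db/+, chosen across the roles, because cell cycle genes are known to share short promoter motifs. Each runs 5′ to 3′ on the strand of its gene over the 200 bases before the start site (RefSeq, build GRCm38.p6). Capitals mark 3 motif families, each searched on both strands: the E2F motif (TTTCCCGC, TTTCGCGC, TTTGCCGC or TTTGGCGC), the cell cycle genes homology region or CHR (TTTGAA or TTCGAA), and the CCAAT box (CCAAT). Chek2 lies at chr5:110839783-110839982 on the plus strand, Timeless at chr10:128237866-128238065 on the plus strand, Prim1 at chr10:128015015-128015214 on the plus strand, Mcm6 at chr1:128359706-128359905 on the minus strand, Mcm7 at chr5:138171884-138172083 on the minus strand and Mki67 at chr7:135716380-135716579 on the minus strand.
Chek2: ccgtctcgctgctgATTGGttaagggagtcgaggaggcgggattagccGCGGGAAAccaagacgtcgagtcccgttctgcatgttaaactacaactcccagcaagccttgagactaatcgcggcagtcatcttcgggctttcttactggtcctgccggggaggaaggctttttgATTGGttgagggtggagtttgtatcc
Timeless: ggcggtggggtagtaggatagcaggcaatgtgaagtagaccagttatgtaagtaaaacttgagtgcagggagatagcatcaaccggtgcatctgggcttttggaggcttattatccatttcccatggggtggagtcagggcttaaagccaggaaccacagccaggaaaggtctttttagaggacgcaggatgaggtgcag
Prim1: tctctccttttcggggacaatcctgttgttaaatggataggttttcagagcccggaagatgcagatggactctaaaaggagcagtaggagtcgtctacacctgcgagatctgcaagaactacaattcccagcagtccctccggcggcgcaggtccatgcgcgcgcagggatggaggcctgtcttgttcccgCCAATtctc
Mcm6: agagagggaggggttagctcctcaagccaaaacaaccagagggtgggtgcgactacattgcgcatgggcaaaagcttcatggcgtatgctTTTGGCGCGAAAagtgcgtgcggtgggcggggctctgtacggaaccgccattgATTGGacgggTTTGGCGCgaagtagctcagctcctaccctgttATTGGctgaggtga
Mcm7: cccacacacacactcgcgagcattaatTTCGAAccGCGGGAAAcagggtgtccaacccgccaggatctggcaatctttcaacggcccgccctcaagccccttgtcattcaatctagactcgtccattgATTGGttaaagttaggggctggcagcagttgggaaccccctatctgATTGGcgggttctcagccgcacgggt
Mki67: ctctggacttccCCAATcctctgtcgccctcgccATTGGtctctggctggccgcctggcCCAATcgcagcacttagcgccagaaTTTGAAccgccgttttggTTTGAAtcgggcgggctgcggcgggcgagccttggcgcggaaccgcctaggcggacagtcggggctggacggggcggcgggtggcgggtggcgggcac

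In these stretches Mcm6 held 2 E2F sites, the first made of overlapping matches on both strands, and 2 CCAAT boxes. Chek2 and Mcm7 held 1 E2F site each, and each had 2 CCAAT boxes, and Mcm7 also held 1 CHR match. Mki67 had no E2F match but 2 CHR matches and 3 CCAAT boxes, Prim1 had 1 CCAAT box, and the Timeless stretch held no match. RefSeq windows of 250 bases before to 50 after the start were at hand for 32 of the 39 genes (82.1%). An E2F motif was in 9 of the 32 (28.1%), against 2.26% of all 32851 windows. CHR was in 12 of 32 (37.5%), against 19.2% of all windows, and the CCAAT box in 22 of 32 (68.8%), against 37.4%. CHR and CCAAT stood together in 12 of 32 genes and in 7.52% of all windows. By role, E2F sites were in 6 of 8 licensing genes, 2 of 7 cyclin, kinase and E2F genes, 1 of 3 checkpoint genes, 0 of 2 DNA replication genes, 0 of 3 nucleotide supply genes and 0 of 9 mitosis genes. CHR and CCAAT were together in 7 of 9 mitosis, 3 of 8 licensing and 2 of 7 cyclin, kinase and E2F genes, and in none of the other roles. Among the 8 genes that fell and had a window, 3 held an E2F motif, 3 a CHR and 7 a CCAAT box. These are counts of letters, not of bound sites.

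Signal from hearts was below that from reference RNA for nearly all of these genes. In every heart of every group, 37 of the 39 genes lay below the reference, which was so for 34.4% of all tested probes. On average 36 genes were at least 2-fold below it (20.4% of all probes) and 21 at least 8-fold below it (2.47% of all probes). None was above it in all hearts, against 34.4% of all probes. The exceptions were Ccnd2 and Gmnn, the gene of geminin, the inhibitor of Cdt1. Ccnd2 was above the reference in 1 db/+ heart. Gmnn averaged 0.33 in treated db/db, 0.24 in untreated db/db and 0.052 in db/+ hearts. Heart and reference are different RNA sources with different dyes, and these cannot be told apart.

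Both db/db groups had lower ratios than db/+ hearts for most of these genes, and none of the genes rose. In treated db/db against db/+ hearts, 7 of 39 genes fell at an adjusted p under 0.05 (limma with Benjamini-Hochberg adjustment over 27552 probes), against 4.24% of all tested probes, and 0 rose, against 4.5% of all probes. For untreated db/db hearts, set against db/+, 9 of 39 fell, against 3.39% of all probes, and 0 rose, against 4.38%. The difference was below 0, whatever its p, for 35 of 39 genes in treated hearts (49.2% of all probes) and for 35 of 39 in untreated hearts (48.2% of all probes). Within slide 2, which held untreated and db/+ hearts, it was below 0 for 22 of 39 genes (13780 of 27552 probes). Group and slide largely coincided, so their parts in the counts over all hearts cannot be told apart. The median difference of the 39 genes was -0.35 in treated hearts, against 0.0054 over all probes, and -0.18 in untreated hearts, against 0.013. At an unadjusted p under 0.05, 24 genes were lower and 1 higher in treated hearts (13.7% and 13.1% of all probes), and 13 were lower and 1 higher in untreated hearts (11.7% and 13.8%). All treated hearts lay below all db/+ hearts for 10 genes and above them for 1 gene (6.98% and 7.61% of all probes). All untreated hearts lay below all db/+ hearts for 6 genes and above them for 0 (3.47% and 4.34%). These comparisons share the db/+ hearts and are not independent. Single fitted differences ran from -1.01 to 0.48 in treated and from -1.22 to 0.45 in untreated hearts.

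**Figure D1:**
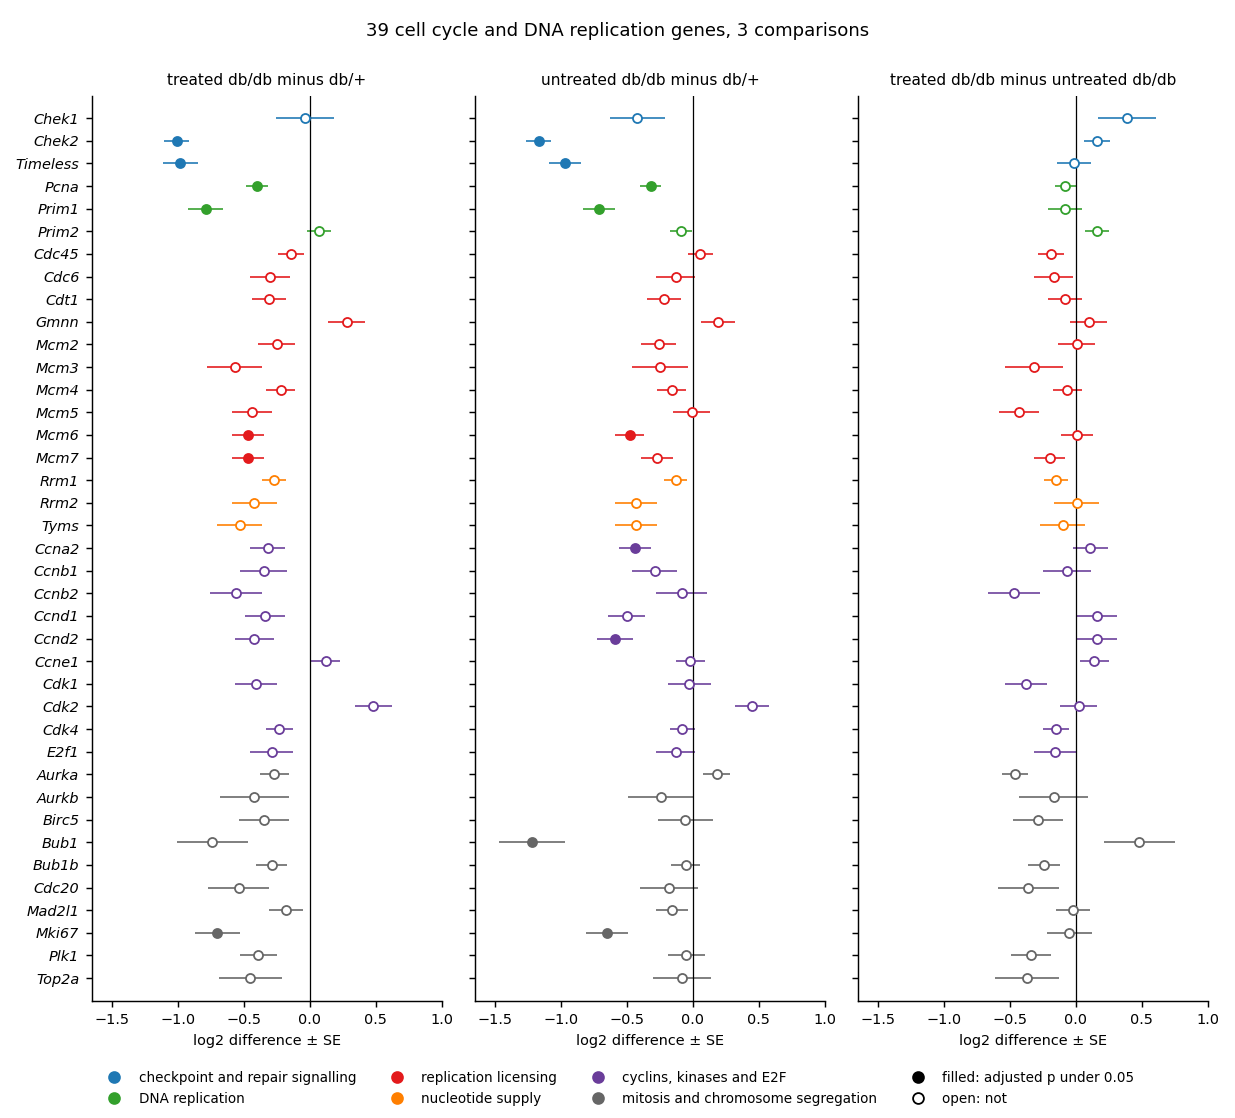
Fitted log2 difference ± SE of each of the 39 genes in treated db/db minus db/+, untreated db/db minus db/+ and treated minus untreated db/db hearts, coloured by role, with filled points at an adjusted p under 0.05. Filled points number 7, 9 and 0, and all lie left of 0.

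Of the 3 genes of checkpoint signalling, Chek2 and Timeless fell in both db/db groups. Chek2 encodes the checkpoint kinase that acts downstream of Atm after DNA breaks (probe at chr5:111105830-111105889, build mm8). Its log2 ratio was -1.97, -1.87, -2.05 and -2.24 in treated db/db hearts, -2.20, -2.09, -2.21, -2.36 and -2.10 in untreated db/db hearts, and -0.92, -1.01, -0.95, -1.20 and -1.04 in db/+ hearts. Every db/db heart lay well below every db/+ heart, with no overlap. The difference was -1.01 ± 0.097 (SE) in treated hearts (2.01-fold lower, limma adjusted p = 6.9e-05) and -1.17 ± 0.092 in untreated hearts (2.25-fold lower, adjusted p = 1.62e-05). Within slide 2 untreated hearts differed from db/+ replicate 5 by -1.13, and with slide as a block Chek2 was the 1 gene of the 39 that kept its call in untreated hearts (adjusted p = 0.0423). In treated hearts it did not keep it there (-0.81, adjusted p = 0.549). The brightest probe had a mean heart signal of 321, and a dimmer second Chek2 probe was not bright enough to test.

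Timeless encodes a replication fork protein, named for its fly counterpart in the circadian clock, that aids checkpoint signalling (probe at chr10:127655689-127655748, build mm8). Treated db/db hearts had -1.49, -0.75, -1.08 and -1.35, untreated db/db hearts -1.25, -1.03, -1.19, -1.0 and -1.28, and db/+ hearts -0.20, -0.32, -0.14, -0.12 and -0.14. Every db/db heart lay below every db/+ heart, treated and untreated hearts overlapped, and treated hearts were the most spread. Timeless fell by 0.98 in treated hearts (SE 0.13, 1.97-fold, limma adjusted p = 0.000859) and by 0.97 in untreated hearts (SE 0.12, 1.95-fold, adjusted p = 0.000658). Within slide 2 the difference was -1.02, but with slide as a block it missed the threshold (adjusted p = 0.729 in treated and 0.208 in untreated hearts). A dimmer second Timeless probe differed by -0.41 in treated hearts (adjusted p = 0.167) and by -0.22 in untreated hearts (adjusted p = 0.451), so the size rests on 1 of 2 probes. Chek1, the kinase that responds to stalled forks, did not pass: it differed by -0.037 in treated (adjusted p = 0.933) and -0.42 in untreated hearts (adjusted p = 0.215).

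Of the 3 genes of DNA synthesis, Prim1 and Pcna fell in both db/db groups. Prim1 is the catalytic subunit of primase, which makes the RNA primers for DNA polymerase alpha (probe at chr10:127432845-127432904, build mm8). Its ratio was -5.35, -5.27, -5.03 and -5.52 in treated db/db hearts, -5.25, -5.05, -5.42, -5.07 and -5.25 in untreated db/db hearts, and -4.41, -4.69, -4.19, -4.50 and -4.71 in db/+ hearts. All db/db hearts were below all db/+ hearts. The difference was -0.79 ± 0.13 in treated hearts (1.73-fold lower, limma adjusted p = 0.00341) and -0.71 ± 0.12 in untreated hearts (1.63-fold lower, adjusted p = 0.00452), with -0.53 within slide 2. With slide as a block neither call held (adjusted p = 0.952 in treated and 0.634 in untreated hearts). The Prim1 and Timeless probes lie 222844 bases apart on chromosome 10, and 15 tested probes of 8 gene names between them held 0 calls in each comparison. Prim2, the large primase subunit, differed by 0.069 in treated (adjusted p = 0.667) and -0.09 in untreated hearts (adjusted p = 0.548).

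Pcna, the sliding clamp of DNA polymerases, was measured on 10 spots per array (probe at chr2:131941125-131941262, build mm8). It had -2.77, -2.79, -2.60 and -2.78 in treated db/db hearts, -2.57, -2.72, -2.61, -2.80 and -2.58 in untreated db/db hearts, and -2.32, -2.30, -2.29, -2.30 and -2.48 in db/+ hearts. All db/db hearts lay below all db/+ hearts, of which replicate 5, on slide 2, was the nearest, and treated and untreated hearts overlapped. The falls were small, at -0.40 ± 0.082 in treated hearts (1.32-fold, limma adjusted p = 0.012) and -0.32 ± 0.078 in untreated hearts (1.24-fold, adjusted p = 0.0271), and within slide 2 the difference was -0.15. The untreated call was lost without db/+ replicate 4 (adjusted p = 0.063), untreated replicate 2 (0.053) or untreated replicate 4 (0.054).

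Among the 10 licensing genes, 9 had a difference below 0 in treated and 8 in untreated hearts (49.2% and 48.2% of all probes). The Mcm2 to Mcm7 helicase subunits carried the calls, 2 in treated and 1 in untreated hearts. Of all probes 4.24% and 3.39% fell, and 1 call in 10 genes is not far from that share. Mcm6 (probe at chr1:130159147-130159206, build mm8) had -4.53, -4.35, -4.29 and -4.47 in treated db/db hearts, -4.56, -4.38, -4.43, -4.17 and -4.55 in untreated db/db hearts, and -3.83, -4.06, -3.74, -3.88 and -4.21 in db/+ hearts. Treated hearts lay below all db/+ hearts, whereas untreated replicate 4 overlapped db/+ replicate 5. Mcm6 differed by -0.47 ± 0.12 in treated hearts (1.38-fold lower, limma adjusted p = 0.0254) and by -0.48 ± 0.11 in untreated hearts (1.39-fold, adjusted p = 0.0196), with -0.25 within slide 2. The treated call was lost without db/+ replicate 4 (adjusted p = 0.057) or treated replicate 1 (0.079), 2 (0.052) or 5 (0.073), and the untreated call without untreated replicate 5 (0.05).

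Mcm7 passed in treated hearts and not in untreated hearts, while treated and untreated hearts themselves did not differ at the threshold (-0.2, adjusted p = 0.695). It had -3.47, -3.60, -3.50 and -3.38 in treated db/db hearts, -3.43, -3.34, -3.33, -3.39 and -2.93 in untreated db/db hearts, and -2.83, -2.84, -3.31, -3.0 and -3.08 in db/+ hearts (probe at chr5:138394485-138394544, build mm8). Treated hearts were below all db/+ hearts, and untreated replicate 5 was within the db/+ range. The treated difference was -0.47 ± 0.12 (1.39-fold, limma adjusted p = 0.0326) and the untreated one -0.27 (adjusted p = 0.163). The treated call was lost without db/+ replicate 1 (adjusted p = 0.052), 2 (0.061) or 4 (0.064), or treated replicate 1 (0.075), 2 (0.09) or 5 (0.059).

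The other Mcm subunits moved less or with more spread and passed in neither comparison. Mcm2 had -3.04, -3.08, -3.05 and -3.10 in treated db/db hearts, -3.25, -3.06, -3.25, -3.06 and -2.75 in untreated db/db hearts, and -2.65, -2.46, -3.17, -2.88 and -2.90 in db/+ hearts. The db/+ values spanned both db/db groups' means, and the differences were -0.25 in treated (limma adjusted p = 0.261) and -0.26 in untreated hearts (adjusted p = 0.23). Mcm4 had -3.29, -3.46, -3.31 and -3.34 in treated db/db hearts, -3.45, -2.91, -3.48, -3.40 and -3.19 in untreated db/db hearts, and -3.08, -3.13, -3.12, -3.08 and -3.23 in db/+ hearts. Its treated hearts lay below all db/+ hearts, by a mean difference of -0.22 that did not pass (adjusted p = 0.22), and untreated replicate 2 lay above them all.

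Mcm3 and Mcm5 were likewise below all db/+ hearts in every treated heart, and did not pass. Mcm3 had -3.72, -3.72, -3.63 and -3.56 in treated db/db hearts, -3.20, -3.32, -3.64 and -3.20 in the 4 untreated db/db hearts with an unflagged spot, and -3.31, -2.26, -3.19, -3.17 and -3.51 in db/+ hearts. Its difference from db/+ was -0.57 in treated (limma adjusted p = 0.104) and -0.25 in untreated hearts, with db/+ replicate 2 far above the rest. Mcm5 had -2.08, -2.28, -1.92 and -1.97 in treated db/db hearts, -1.73, -1.66, -1.90, -1.77 and -1.12 in untreated db/db hearts, and -1.73, -1.42, -1.49, -1.63 and -1.86 in db/+ hearts. It differed from db/+ by -0.44 in treated (adjusted p = 0.0826) and by -0.0094 in untreated hearts (adjusted p = 0.976). Cdc6 and Cdt1, which load the helicase, Cdc45, which activates it, and Gmnn, which restrains Cdt1, did not pass, with differences of -0.31 (Cdt1) to 0.28 (Gmnn) in treated and -0.22 (Cdt1) to 0.19 (Gmnn) in untreated hearts.

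The 3 genes of nucleotide supply were below db/+ in both groups without a call on their brightest probe. Tyms, thymidylate synthase, differed by -0.53 in treated hearts, which all lay below the db/+ hearts (limma adjusted p = 0.0652), and by -0.43 in untreated hearts (adjusted p = 0.108). A second Tyms probe passed in treated hearts (-0.58, adjusted p = 0.0435), and another, with a mean heart signal of 50.5, differed by 0.18 (adjusted p = 0.755). Rrm1 and Rrm2, the large and small subunits of ribonucleotide reductase, differed by -0.27 and -0.42 in treated (adjusted p = 0.0822 and 0.137) and by -0.13 and -0.43 in untreated hearts (adjusted p = 0.387 and 0.118).

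Among the 10 cyclin, kinase and E2F genes, Ccna2 and Ccnd2 fell in untreated hearts and 0 passed in treated hearts. Of all probes 3.39% fell in untreated and 4.24% in treated hearts. Ccnd2 encodes cyclin D2, which opens the G1 phase with Cdk4 or Cdk6. It had -0.39, -0.66, -1.10 and -0.56 in treated db/db hearts, -0.63, -0.96, -1.06, -0.70 and -0.85 in untreated db/db hearts, and 0.027, -0.13, -0.41, -0.33 and -0.43 in db/+ hearts. Untreated hearts lay below all db/+ hearts, whereas treated replicate 1 lay within the db/+ range. The difference was -0.42 in treated hearts (limma adjusted p = 0.0892) and -0.59 ± 0.14 in untreated hearts (1.5-fold, adjusted p = 0.0243), with -0.46 within slide 2. The call in untreated hearts was lost without untreated replicate 3 (adjusted p = 0.061) or 5 (0.052). Both other Ccnd2 probes were lower too, 1 of them past the threshold in each comparison (treated -0.62, adjusted p = 0.0198, and untreated -0.67, adjusted p = 0.0109).

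Ccna2, cyclin A2 of S phase and early mitosis, had -3.89, -4.13, -3.86 and -4.12 in treated db/db hearts, -4.31, -4.16, -4.23, -4.0 and -3.86 in untreated db/db hearts, and -3.50, -3.56, -3.69, -3.57 and -4.06 in db/+ hearts. In both db/db groups the values lay below 4 db/+ hearts, and db/+ replicate 5 was among them. The treated difference was -0.32 (limma adjusted p = 0.135) and the untreated one -0.44 ± 0.12 (1.35-fold, adjusted p = 0.0474), with -0.17 within slide 2. The untreated call was the least firm: of 15 single arrays left out in turn, 12 ended it (adjusted p up to 0.11), and it held without db/+ replicate 5, untreated replicate 5 or treated replicate 4.

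Cyclin D1 and its kinase, which were given full values whatever they showed, did not pass. Ccnd1 had -1.28, -1.02, -1.10 and -1.31 in treated db/db hearts, -1.35, -1.31, -1.81, -1.0 and -1.20 in untreated db/db hearts, and -0.62, -0.96, -0.79, -0.69 and -1.13 in db/+ hearts. Its groups overlapped at db/+ replicate 5, with differences of -0.34 in treated (limma adjusted p = 0.174) and -0.50 in untreated hearts (adjusted p = 0.0504). Cdk4 had -2.21, -2.05, -2.23 and -2.10 in treated db/db hearts, -2.09, -2.10, -1.89, -2.08 and -1.79 in untreated db/db hearts, and -1.88, -1.77, -2.14, -1.84 and -1.94 in db/+ hearts. It differed by -0.23 in treated (adjusted p = 0.151) and -0.079 in untreated hearts (adjusted p = 0.636).

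Cdk2, the kinase of cyclins E and A, was the 1 gene of the 39 whose treated hearts all lay above the db/+ hearts. It had -1.35, -1.06, -1.34 and -1.34 in treated db/db hearts, -1.29, -1.35, -1.19, -1.66 and -0.99 in untreated db/db hearts, and -1.80, -1.48, -1.92, -1.96 and -1.59 in db/+ hearts. The difference was 0.48 in treated (limma adjusted p = 0.0503) and 0.45 in untreated hearts (adjusted p = 0.0519), both just short of the threshold, at a mean heart signal of 142. Cdk1, Ccnb1, Ccnb2, Ccne1 and E2f1 did not pass on their brightest probe, with differences of -0.56 (Ccnb2) to 0.12 (Ccne1) in treated and -0.29 (Ccnb1) to -0.02 (Ccne1) in untreated hearts. The dimmest of 3 Ccnb1 probes passed in untreated hearts (-0.84, adjusted p = 0.0236) and not in treated hearts (-0.39, adjusted p = 0.249).

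All 10 mitosis genes were below db/+ in treated hearts and 9 of 10 in untreated hearts (49.2% and 48.2% of all probes). Calls numbered 1 and 2, where 4.24% and 3.39% of all probes fell, and 1 call in 10 genes is not far from that share. Mki67, the proliferation marker Ki-67 that coats mitotic chromosomes, had -5.0, -5.16, -4.95 and -5.23 in treated db/db hearts, -5.26, -5.19, -5.06, -4.85 and -4.82 in untreated db/db hearts, and -4.36, -4.10, -4.22, -4.20 and -5.05 in db/+ hearts (probe at chr7:135528251-135528310, build mm8). Every db/+ heart but replicate 5 was above every db/db heart. Mki67 differed by -0.70 ± 0.17 in treated (1.62-fold lower, limma adjusted p = 0.0262) and by -0.65 ± 0.16 in untreated hearts (1.57-fold lower, adjusted p = 0.03). Within slide 2, against db/+ replicate 5, the difference was -0.12. The treated call was lost without db/+ replicate 2 (adjusted p = 0.051), 3 (0.053) or 4 (0.061) or treated replicate 1 (0.056), 2 (0.069) or 5 (0.078). The untreated call was lost without db/+ replicate 2 (0.06), 3 (0.064) or 4 (0.074) or untreated replicate 1 (0.07), 2 (0.057) or 3 (0.062). A second, dimmer Mki67 probe differed by -0.50 in treated (adjusted p = 0.0553) and -0.38 in untreated hearts (adjusted p = 0.12).

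Bub1, a kinase of the spindle checkpoint, showed the same split of the db/+ hearts (probe at chr2:127492693-127492752, build mm8). It had -6.98, -6.78, -6.79 and -7.51 in treated db/db hearts, -7.80, -7.76, -7.23, -7.47 and -7.25 in untreated db/db hearts, and -5.79, -6.67, -5.93, -5.86 and -7.15 in db/+ hearts. Untreated hearts lay below all db/+ hearts, while db/+ replicate 5 lay among the treated hearts. The difference was -0.74 in treated (limma adjusted p = 0.101) and -1.22 ± 0.25 in untreated hearts (2.33-fold lower, adjusted p = 0.0123), with -0.45 within slide 2 and a mean heart signal of 156. Top2a, the topoisomerase that untangles sister chromatids, had -4.64, -5.04, -4.76 and -4.69 in treated db/db hearts, -3.85, -4.71, -4.71, -4.35 and -4.44 in untreated db/db hearts, and -4.49, -3.67, -4.21, -4.25 and -5.04 in db/+ hearts. The db/+ values spanned nearly all db/db values. Top2a differed by -0.45 in treated (adjusted p = 0.241) and -0.08 in untreated hearts (adjusted p = 0.86), and by 0.62 within slide 2. The mitotic kinases Plk1, Aurka and Aurkb, the spindle checkpoint genes Bub1b and Mad2l1, the anaphase activator Cdc20 and survivin, Birc5, did not pass. In treated hearts they ran from -0.54 (Cdc20) to -0.18 (Mad2l1), and in untreated hearts from -0.24 (Aurkb) to 0.18 (Aurka). Spots of Birc5 were left out on 4 arrays for outlier flags.

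**Figure D2:**
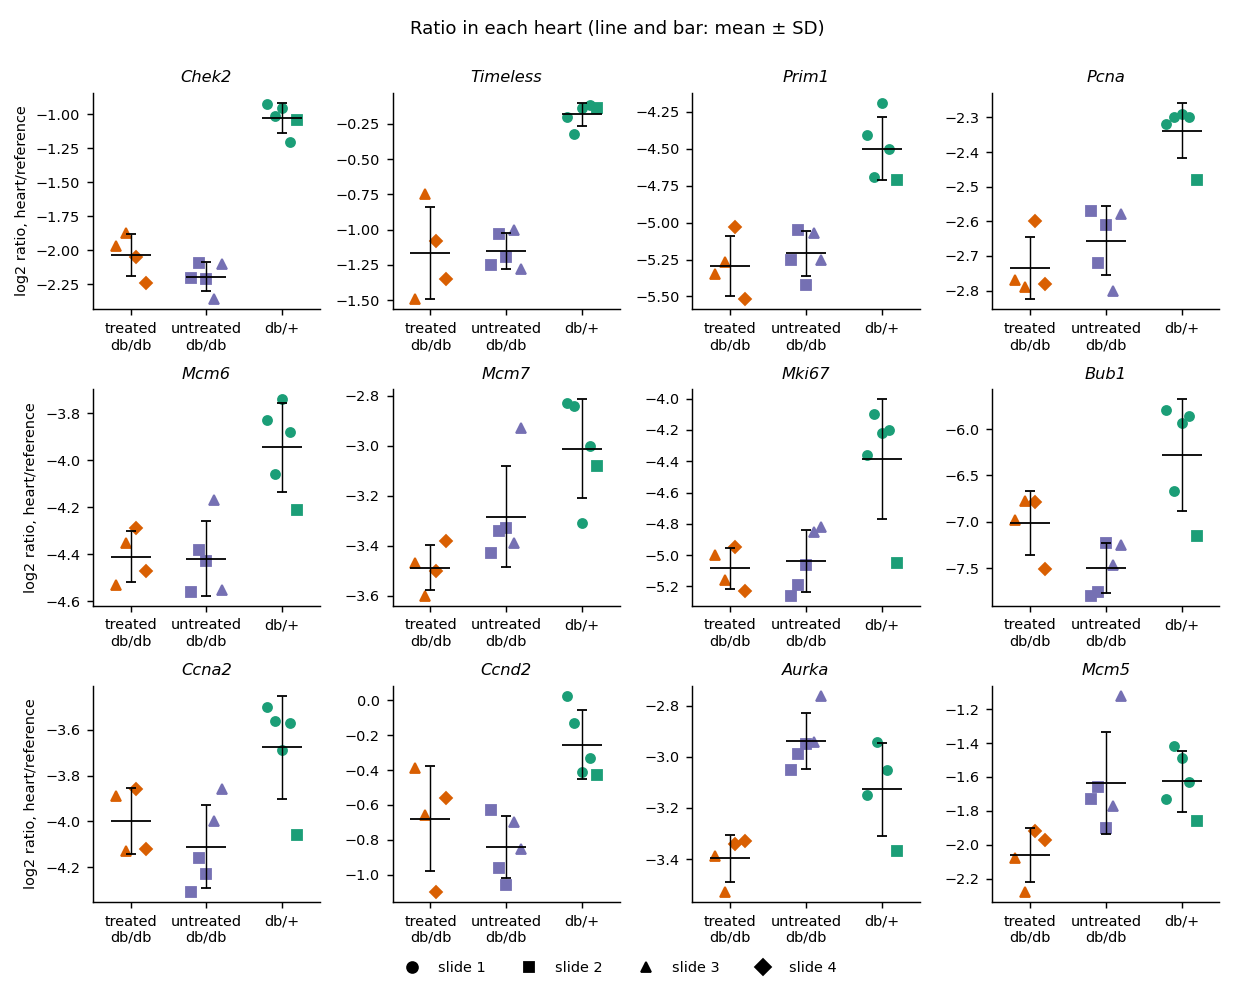
Log2 ratio of heart to reference in each heart for 12 of the genes, by group, with mean ± SD and slides as symbols (treated replicates 3 and 4 are 1 point). Chek2, Timeless and Prim1 separate all db/db from all db/+ hearts, while 1 db/+ heart, replicate 5 on slide 2, reaches the db/db range for Mki67, Bub1 and Ccna2.

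Hearts of a group differed among themselves, and db/+ replicate 5 stood with the db/db hearts for most of the 39 genes. Set against each gene's db/+ mean, the median deviation was -0.31, -0.44, -0.26 and -0.34 in treated db/db hearts, -0.25, -0.26, -0.32, -0.16 and -0.13 in untreated db/db hearts, and 0.021, 0.097, 0.044, 0.071 and -0.24 in db/+ hearts. Replicate 5 was the only db/+ heart below the db/+ mean for most genes, at 37 of 39, against 10 to 19 genes in the other 4 db/+ hearts. It was also the only db/+ heart on the slide of untreated replicates 1 to 3. Within slide 2 the median difference of untreated hearts over the 39 genes was -0.044, and 22 of 39 were below 0, against -0.18 and 35 of 39 over all hearts. Over all probes of that slide the median was -0.00021 and 13780 of 27552 were below 0, a share near that of the 39 genes. Within that slide, which holds 1 db/+ heart, Chek2 differed by -1.13, Timeless by -1.02 and Chek1 by -0.19. The 10 licensing genes had a median of -0.034 there and the 10 mitosis genes 0.23, with 3 of 10 below 0, and differences between roles were not tested. With slide as a block 1 of 39 genes was called in untreated hearts and 0 in treated hearts, beside 32 and 4 of all probes. Without db/+ replicate 5, the calls numbered 12 in treated hearts, against 8.38% of all probes, and 10 in untreated hearts, against 7.1%. Slide and heart cannot be told apart for this replicate. Nor can slide and group for most other hearts, since slide 1 held db/+ hearts only and treated and db/+ hearts shared no slide.

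**Figure D3:**
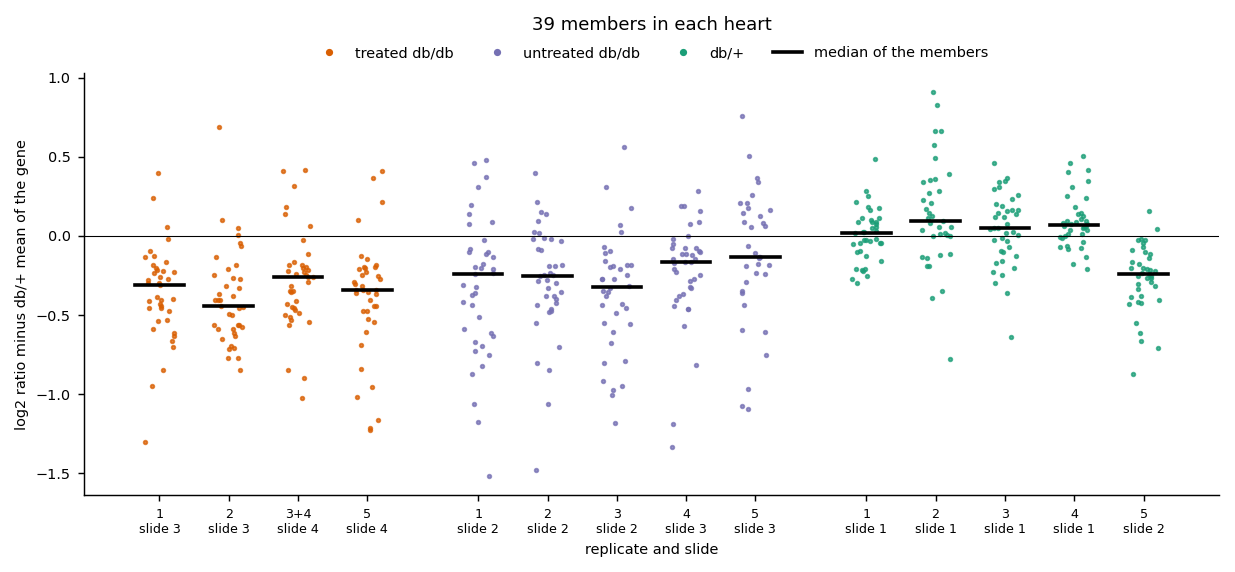
Deviation of each of the 39 genes from its db/+ mean (log2, y axis) in every heart (x axis), with the median as a line. Medians run from -0.44 to -0.26 in treated db/db hearts, from -0.32 to -0.13 in untreated db/db hearts and from -0.24 to 0.097 in db/+ hearts, where replicate 5 is the lowest.

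When treated db/db hearts were set against untreated ones, none of the 39 genes was called. The counts in limma were 0 lower and 0 higher, as for all probes (0% lower and 0% higher). The difference was below 0 for 26 of 39 genes (51.9% of all probes), with a median of -0.084 against -0.0094 over all probes. At an unadjusted p under 0.05, 5 genes were lower and 0 higher (4.77% and 4.01% of all probes). All treated hearts lay below all untreated hearts for 4 genes and above them for 1, Chek1 (2.52% and 2.08% of all probes). Aurka, the kinase of spindle poles, had the smallest p. It had -3.39, -3.53, -3.34 and -3.33 in treated db/db hearts, against -3.05, -2.99, -2.95, -2.94 and -2.76 in untreated db/db hearts, and -3.15, -2.94, -3.05 and -3.37 in the 4 db/+ hearts with an unflagged spot. Treated hearts were the lower ones without overlap, by -0.46 ± 0.10 (1.37-fold, unadjusted p = 0.00063, limma adjusted p = 0.384), and by -0.61 within slide 3.

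Next by p were Mcm5 and Ccnb2, cyclin B2. Mcm5 differed by -0.43 ± 0.15 between treated and untreated hearts (limma adjusted p = 0.461) and by -0.74 within slide 3, where untreated replicate 5, at -1.12, was the highest heart. Ccnb2 had -2.79, -3.12, -2.90 and -3.01 in treated db/db hearts, against -2.43, -2.80, -2.51, -2.61 and -2.06 in untreated db/db hearts, and -2.50, -1.74, -2.43, -2.39 and -2.95 in db/+ hearts. The treated and untreated values met at -2.79 and -2.80, and the difference was -0.47 ± 0.20 (adjusted p = 0.536). The mitosis genes were lower in treated hearts for 9 of 10 (51.9% of all probes), with a median of -0.27, Bub1 being the exception at 0.48 (adjusted p = 0.651). Chek2, Timeless and Prim1 differed by 0.16, -0.014 and -0.084 (adjusted p = 0.684, 0.989 and 0.918).

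Other genes of the pathway, outside the 39, were mostly below db/+ as well. Of 33 other mitosis genes tested, 4 fell and 0 rose in treated hearts (median -0.40, 33 below 0), and 4 fell and 0 rose in untreated hearts (median -0.26, 30 below 0). Smc4, a condensin subunit, fell in both (treated -0.70, limma adjusted p = 0.00627, and untreated -0.69, adjusted p = 0.00442), as did the condensin gene Ncapg (treated -0.76, adjusted p = 0.0435, and untreated -0.83, adjusted p = 0.0253). Of 32 other replication genes, 5 fell in treated hearts (median -0.22, 29 below 0), among them the clamp loader gene Rfc3 (-0.40, adjusted p = 0.0158) and Pold2, a subunit of DNA polymerase delta (-0.47, adjusted p = 0.0175). In untreated hearts 1 of the 32 fell (median -0.12, 27 below 0), Orc2 of the origin recognition complex (-0.36, adjusted p = 0.0485). None of the 32 rose. Of all probes, 4.24% fell in treated and 3.39% in untreated hearts, and the share of 1 in 32 genes is near that. Within slide 2 the medians were 0.057 for the replication and 0.025 for the mitosis genes. Of 12 other checkpoint genes 1 fell in treated and 2 in untreated hearts, where Gadd45a, a gene induced by DNA damage, was among them (-0.51, adjusted p = 0.0263). Of 18 other cyclins, kinases and phosphatases, 1 fell in each comparison, again near the share of all probes: Cdc7 in treated (-0.56, adjusted p = 0.0331) and Cks2 in untreated hearts (-0.70, adjusted p = 0.027). With slide as a block no call of these lists held, and Ncapg differed by -0.23 in treated (adjusted p = 1) and -0.15 in untreated hearts (adjusted p = 0.97), while Smc4 differed by -0.46 in treated (adjusted p = 1) and -0.41 in untreated hearts (adjusted p = 0.73).

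Cyclin-dependent kinase inhibitors moved in opposite directions. Cdkn1a, the p21 inhibitor induced by p53, rose 3.84-fold in treated (log2 difference 1.94 ± 0.25, limma adjusted p = 0.000513) and 3.56-fold in untreated hearts (1.83 ± 0.23, adjusted p = 0.000558), and within slide 2 it was 1.87 higher. Cdkn1c, the p57 inhibitor, fell 1.94-fold in treated (-0.95 ± 0.12, adjusted p = 0.000646) and 1.95-fold in untreated hearts (-0.96 ± 0.12, adjusted p = 0.00042), with -0.92 within slide 2. The other 5 inhibitors tested did not pass. Of 12 pocket protein and E2F genes, Tfdp2, a partner of E2F, rose (treated 0.74, adjusted p = 0.00209, and untreated 0.71, adjusted p = 0.00194), and Rbl1, the p107 pocket protein, fell (treated -0.51, adjusted p = 0.00561, and untreated -0.30, adjusted p = 0.0487). Between treated and untreated hearts 0 genes of these lists passed. With slide as a block none of these calls held (adjusted p of 0.16 for Cdkn1a and 0.17 for Cdkn1c in untreated hearts).

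Markers of the heart's cell types were measured beside the cell cycle genes. Cardiomyocyte markers averaged 6.41 to 6.74 above the reference on the log2 scale in treated db/db, 5.05 to 7.21 in untreated db/db and 4.38 to 7.68 in db/+ hearts, and 0 of 7 passed. None of 7 endothelial, 7 fibroblast, 8 macrophage and leukocyte or 3 erythroid markers passed in either comparison with db/+. B cell markers were lower in db/db hearts, with 3 of 4 called in each comparison. Their mean ratio ran from -2.63 to -2.29 in treated db/db, -2.86 to -2.39 in untreated db/db and -1.95 to -1.50 in db/+ hearts, and db/+ replicate 5 was at -1.60. Cd79b, a subunit of the B cell receptor, differed by -1.19 in treated (limma adjusted p = 7.1e-05) and -1.0 in untreated hearts (adjusted p = 0.000213). Pax5 and Cr2 of that list were not bright enough to test. Of 8 T and NK cell markers, Cd3d alone fell, in treated hearts, and of 4 neutrophil markers Ltf alone rose, in treated hearts. Hepatocyte markers rose for 1 of 5 in treated and 3 of 5 in untreated hearts, and adipocyte markers fell for 2 of 5 in each. The part of these cell types in the differences of the cell cycle genes was not tested.

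The heart channel was also taken without a ratio to the reference, after arrays were scaled on the average intensity of both channels. There 4 of the 39 genes were called in treated hearts, against 9.79% of all probes, a share near that of all probes. In untreated hearts 7 were called, against 6.61%. In the reference channel 0 were called in each.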

How the data were processed

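Whole-heart RNA of 15 mice was measured on 2-colour Agilent arrays. Per the file headers, the authors took the intensity of each channel from the scans (Feature Extraction 9.5.1.1, with background subtraction and LOWESS dye normalization) and deposited, for each of 45018 spots, the log10 ratio of Cy5 (heart) over Cy3 (reference). The submitters' notes name version 9.5.1. The value table the authors deposited holds the same log10 ratios and was used as a check.

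Ratios were converted to log2, 1639 control spots and 4006 outlier-flagged spots were left out, and spots of a probe were averaged. Flagged spots were unevenly spread, with 1046 on db/+ replicate 2 and 972 on untreated replicate 5, against 9 to 533 on the other arrays. Of 41174 probes, 27552 were well above background in the heart channel of 4 or more of the 5 arrays in some group, and these were tested with limma 3.58.1 in R 4.3.3, with all 3 groups in 1 fit, 11 residual degrees of freedom and Benjamini-Hochberg adjustment over all tested probes. A gene was called at an adjusted p under 0.05. The methods name SAM with no rate, and it was not run here. Each p sets a difference between groups against the spread between these hearts, and the number of arrays limits the precision.

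The genes, lists and rule for naming were chosen with earlier results of these data known. Full values are given for genes called in any comparison, for Mki67, Top2a, Pcna, Ccnd1, Ccnd2, Cdk4 and Mcm2 to Mcm7 whatever they showed, and for the 3 with the smallest p between treated and untreated hearts. Cdk2, Chek1, Tyms and other probes were added after their values were seen. From other lists up to 4 genes are named, a few of their genes are not reported, and accessions matched 36 of the 39 genes to a current RefSeq symbol. Probe positions are those of the files, which name build mm8, and promoters come from RefSeq (GRCm38.p6), so the builds are not compared.

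Alternatives were normexp background correction (offset 50) with loess, scaling or centring of arrays, a filter on dim probes that was stricter or absent, a fixed or random slide block, a replicate block, a fit of only the groups compared, treated replicates 3 and 4 separate, the mean of a gene's probes, an adjusted p under 0.10, and each array left out in turn. Flagged spots kept, the heart channel alone, and db/+ replicate 3 with untreated replicate 2 left out were chosen after seeing the data. The limma step alone was tested on simulated data, drawn independently for each probe and heart and with no slide effect. Random blocks used statmod 1.5.0, tables were handled by the package data.table, version 1.17.8, and plotting used Python (3.11.15) with numpy 2.4.6, pandas 2.3.3 and matplotlib 3.10.9.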

Additional observations from a re-analysis of the deposited data

Results flagged for a closer look

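Within the 3 groups, 118 sets of values were examined, each of 1 gene or of the mean of the genes in a group. In 8 of these sets, all of single genes, 1 heart was set far apart from the others, and chance alone sets about 1 in 20 apart. In treated db/db hearts, Pcna was -2.60 in the averaged replicates 3 and 4 (next -2.77), Cdk2 was -1.06 in replicate 2 (next -1.34), and Bub1b was -3.43 in replicate 2 (next -3.24). In untreated db/db hearts, Chek1 was -4.50 in replicate 1 (next -4.18) and Mcm7 was -2.93 in replicate 5 (next -3.33). In db/+ hearts, Mcm3 was -2.26 in replicate 2 (next -3.17), Pcna was -2.48 in replicate 5 (next -2.32), and Mki67 was -5.05 in replicate 5 (next -4.36). All are log2 ratios of heart to reference.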

How the results depend on the processing

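The count of genes called was 7 in treated and 9 in untreated db/db against db/+ hearts. In treated hearts it was 0 with slide as a fixed block, 16 with slide as a random block (consensus correlation -0.114), 11 with treated replicates 3 and 4 separate, 13 at an adjusted p under 0.10 and 4 in the heart channel alone. With single arrays left out it ran from 4 (without db/+ replicate 4 or treated replicate 1, 2 or 5) to 12 (without db/+ replicate 5). Of all probes, 5.24%, 4.28%, 4.65% and 3.97% were called without the former arrays, in that order, and 8.38% without the latter. In untreated hearts the count was 1 with slide as a fixed block and 5 with only the 2 groups fitted. It was 3 without db/+ replicate 3 and untreated replicate 2 together (5.01% of all probes). With single arrays left out it was 6 to 10, beside 4.29% to 9.97% of all probes. The cause of these moves was not tested. The median difference was -0.72 in treated and -0.68 in untreated hearts under normexp and loess, and -0.44 to -0.30 and -0.28 to -0.15 with single arrays left out. Between treated and untreated hearts the count was 0 in limma under all alternatives, with 5 of 39 genes and 1315 lower and 1105 higher of all probes at an unadjusted p under 0.05, and 0 and 61 of all probes called from ratios and from the heart channel alone, and the median ran from -0.13 to -0.06 with single arrays left out.

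A replicate block, with treated replicates 3 and 4 separate, gave 9, 8 and 0 genes in treated against db/+, untreated against db/+ and treated against untreated hearts. The shares of all probes called there were 9.18%, 6.03% and 0%. Correlations of hearts of the same number ran from -0.00774 to 0.0331, -0.191 to 0.0477 and -0.184 to 0.0155, and no number's hearts correlated best with each other, so the numbers were not taken to pair the samples.

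Over all probes, calls were 1167 lower and 1241 higher in treated and 934 lower and 1206 higher in untreated against db/+ hearts. Normexp gave 453 lower and 1023 higher, and 946 lower and 2107 higher. All-probe counts were 4 and 32 with slide fixed, 5128 and 5033 with slide random, 3753 and 2594 with treated replicates 3 and 4 separate, 4477 and 4071 at an adjusted p under 0.10, and 1872 and 927 with only the groups compared. No direction of a called gene was reversed. Chek2 kept its call in untreated hearts under all 30 alternatives, and Timeless lost it only with slide as a fixed block. Bub1 lost it with normexp (-1.96), with that block and without db/+ replicate 3 and untreated replicate 2 together (-1.07, adjusted p = 0.056).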
